A study of Caenorhabditis elegans with 2 samples.

Results

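Of the 19973 protein-coding genes of Caenorhabditis elegans, 10 alpha and beta tubulin genes were examined for binding of tagged HMG-4, a worm counterpart of the SSRP1 subunit of the histone chaperone FACT. They were taken by name, as 6 alpha genes (tba-1, tba-2, tba-4, tba-5, tba-6 and tba-7) and 4 beta genes (tbb-1, tbb-2, tbb-4 and mec-7), and all 10 were found in the annotation. The choice by name used no signal value, but it was made with earlier results of these data known. The material was early embryos, with both sexes pooled, released by bleaching at 0 hours. They came from strain OP660, which is unc-119(tm4063) and carries the transgene wgIs660, that is hmg-4 fused to TY1, EGFP and 3xFLAG together with a working unc-119 copy. Both biological replicates came from this single transgenic line, the fusion protein was pulled down through its fluorescent tag, and there was 1 group with no other condition. Whole embryos were used, so signal from different cells of the embryo cannot be told apart.

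Microtubules are hollow tubes of alpha and beta tubulin dimers that build the mitotic spindle, carry cargo and form the core of cilia. The early worm embryo divides rapidly with spindles built from a few tubulin isotypes, while other isotypes are made later in particular cells. From textbook expression, tba-1, tba-2, tbb-1 and tbb-2 were classed as embryo-expressed. The genes tba-5, tba-6 and tbb-4, which act in ciliated sensory neurons, and mec-7, which builds the specialised microtubules of the touch receptor neurons, were classed as neuron-specific. The genes tba-4 and tba-7 were put in neither class. FACT loosens and rebuilds nucleosomes in front of and behind RNA polymerase.

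The values are peaks from 4 deposited lists. Each replicate's list and the list called on both replicates pooled held 30000 peaks, while 2137 peaks made up the list kept at a threshold on the irreproducible discovery rate (IDR), a measure of how well replicates repeat a peak, and these had pooled signal values of 130 and above. The signal value is the strength of a peak as the authors' caller gave it. The pooled value was close to the sum of the replicates' values at the 10 tubulin sites found in both, with a median ratio of 1.006 and a range of 0.892 to 1.12, so a pooled value should be read beside pooled values only. Rank 1 is the strongest peak of a list. Only 16.3% of the pooled peaks, 25.3% of replicate 1's and 10.2% of replicate 2's had a deposited q-value of 0.05 or less, so many entries are weak. Read depth is unknown. With 2 replicates of 1 group and genes that are not replicates of each other, no p-value is given.

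Tagged HMG-4 was found close to the start of 3 of the 10 tubulin genes in the IDR list, tba-7, tba-1 and tba-2. The window was 500 bp either side of the annotated 5' end, and 4.38% of all protein-coding genes had an IDR summit in it. Among as many of the strongest peaks of a single replicate as the IDR list holds, the count was 2 in replicate 1 (tba-1 and tba-7), beside 3.79% of protein-coding genes. It was 5 in replicate 2 (tba-1, tba-2, tba-7, tbb-1 and tbb-4), beside 4.83%. Pooled signal values were 441 at tba-7, 215 at tba-1 and 141 at tba-2. Among the 874 protein-coding genes with an IDR summit in this window, tba-7 was 34th, tba-1 was 259th and tba-2 was 725th in strength. By class, the IDR list had a summit there for 2 of the 4 embryo-expressed genes, tba-1 and tba-2 but not tbb-1 or tbb-2. It had one for 0 of the 4 neuron-specific genes, a count near the share of 4.38% over all protein-coding genes. The difference between the classes was not tested.

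**Figure D1:**
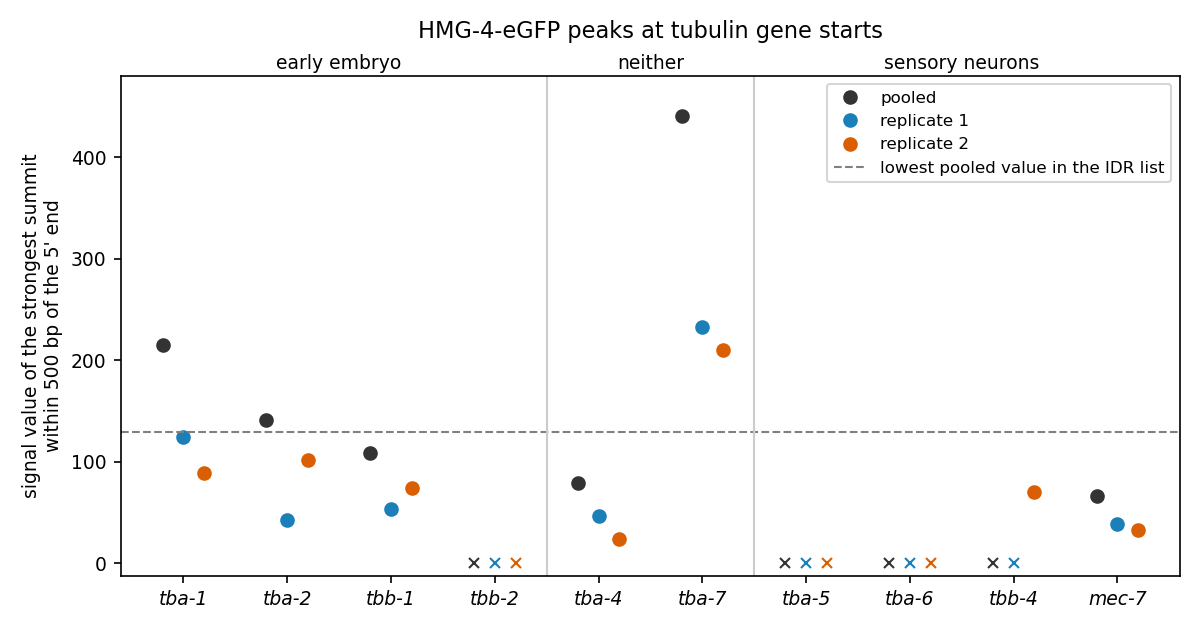
Signal value of the strongest summit in the 500 bp window of each tubulin gene, in the pooled list (black), replicate 1 (blue) and replicate 2 (orange). Crosses at 0 mark genes with no summit in that list and are not measured values, and the dashed line is the lowest pooled value in the IDR list, 130; only tba-1, tba-2 and tba-7 have a pooled value above it.

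The strongest of these peaks, at tba-7 (WBGene00006533), an alpha tubulin gene on chromosome III at 11368351 to 11371788 on the minus strand, lay inside the gene and not upstream of it. Its summit was 350 bp downstream of the 5' end, in intron 1 of 4, and the peak spanned 11371327 to 11371580, a width of 254 bp where the median IDR peak had 440 bp. The signal value was 233 in replicate 1, where it ranked 92, and 210 in replicate 2, where it ranked 100. Both replicates thus placed this site among their 100 strongest peaks, with summits 335 bp and 350 bp inside the gene. The ratio of replicate 1 to replicate 2, 1.11, was close to the median of 1.14 over 3534 protein-coding genes with a summit in the window in both lists.

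The site is shared with other genes. The 5' ends of 3 unclassified non-coding RNA genes annotated within the tba-7 body lay nearer to the summit than that of tba-7: T28D6.10 at 14 bp, T28D6.13 at 17 bp and T28D6.15 at 51 bp. The summit lay within T28D6.15, which runs in the same direction as tba-7. Signal from tba-7 and from these RNA genes cannot be told apart in a peak list. The sequence of the peak is shown because it holds letters of both internal promoter elements used by RNA polymerase III at tRNA genes, the A box (searched as TGGCNNAGT) and the B box (searched as GTTCNANNC), in capitals. It is read from the RefSeq genome of the ce11 build, on the minus strand, 5' to 3'.
tba-7 peak, chrIII:11371327-11371580: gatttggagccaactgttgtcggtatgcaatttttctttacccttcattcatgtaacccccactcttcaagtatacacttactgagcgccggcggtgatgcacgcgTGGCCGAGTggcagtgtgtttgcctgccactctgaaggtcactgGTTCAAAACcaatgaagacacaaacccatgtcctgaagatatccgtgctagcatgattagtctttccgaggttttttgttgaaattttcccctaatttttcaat
The A box letters began at base 107 (11371466 to 11371474) and the B box letters at base 151 (11371422 to 11371430), on the same strand, in the order found in tRNA genes. These motifs were chosen after the sequence was seen. They were searched on both strands of 201 bp windows centred on each summit or 5' end. Both occurred on the same strand in 1.22% of the windows at IDR summits, in 7.52% of those at the 5' ends of 612 tRNA genes and in 0.0401% of those at the starts of protein-coding genes. The B box letters alone were in 14.3%, 95.1% and 6.23% of these windows, and the A box letters alone in 3.74%, 11.1% and 1.28%. A match describes letters, not a site in use. No tRNA gene is annotated at this intron.

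A second tba-7 summit lay 908 bp upstream, outside the window, with a pooled value of 126 and rank 2293, which is 0.972 times the lowest value in the IDR list. Replicates 1 and 2 gave it 65.5 and 65.0. It was thus just outside the IDR list and nearly equal in both replicates.

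The tba-1 and tba-2 peaks lay upstream of the genes. For tba-1 (WBGene00006528), on chromosome I at 9785781 to 9787624 on the minus strand, the summit was 352 bp upstream of the 5' end in the pooled list, with 124 in replicate 1 (rank 578) and 89.2 in replicate 2 (rank 976). A second annotated transcript of tba-1 starts 234 bp further in, and the summit lies outside the 500 bp window of that start. The nearest edge of the next gene upstream, cox-5B, a subunit gene of cytochrome oxidase, was 1100 bp away. No other gene had its 5' end within 500 bp of the summit. A weak replicate 1 summit 1488 bp inside tba-1 (36.5) was 412 bp from the 5' end of drsh-1, which encodes the Drosha ribonuclease of microRNA processing.

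For tba-2 (WBGene00006529), on chromosome I at 12964674 to 12966795 on the minus strand, the summit was 117 bp upstream, with 42.9 in replicate 1 (rank 9795) and 102 in replicate 2 (rank 687). The replicates agreed on the position, with summits 112 bp and 115 bp upstream, but not on the strength. The replicate 1 to replicate 2 ratio was 0.420, and 1.22% of the 3534 protein-coding genes had a lower one. In replicate 1 the −log10 q at tba-2 was 1.06, so the q-value there was above 0.05, against 3.36 in replicate 2. The tba-2 site thus ranked far below the length of the IDR list, 2137 peaks, in replicate 1 and well within it in replicate 2. A second annotated transcript of tba-2 starts 524 bp further in, and the summit lies outside the 500 bp window of that start. The first coding base of tba-2 is 532 bp inside the gene, 649 bp from the summit. The proteasome subunit gene pbs-2 lies upstream, with 420 bp between the genes.

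**Figure D2:**
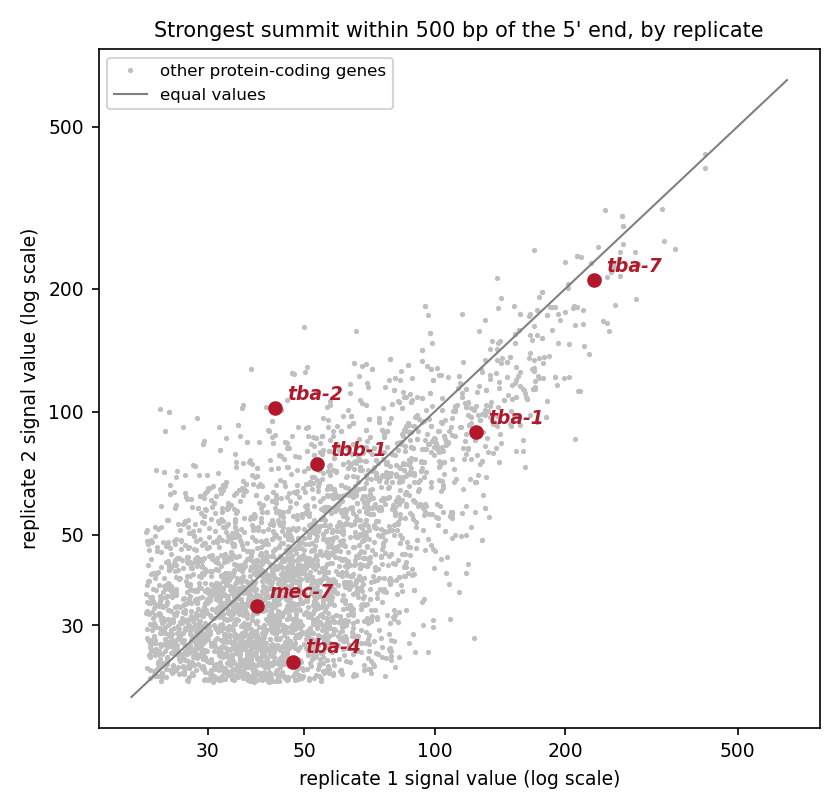
Replicate 1 against replicate 2 signal value (log axes) of the strongest summit in the 500 bp window, for 3534 protein-coding genes with one in both lists (grey) and the tubulin genes among them (red); the line marks equal values. The tba-7 point lies near the line at the upper end, and tba-2 lies far above it, at 42.9 and 102. For tbb-1 and for mec-7, the strongest summits of the replicates are at different places.

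In the pooled list, 6 of 10 tubulin genes had at least 1 summit in this window, beside 29.5% of protein-coding genes. Replicate 1's list gave 6 (background 28.2%) and replicate 2's list 7 (background 31.5%). Genes added to those of the IDR list were tbb-1, tba-4 and mec-7, with tbb-4 in replicate 2 alone. The pooled list included a summit in this window for 3 of the 4 embryo-expressed genes and 1 of the 4 neuron-specific genes, and for both of the others. The neuron-specific count was near the share of 29.5% over all protein-coding genes. It was 1 in replicate 1's list and 2 in replicate 2's, while the embryo-expressed count was 3 in each.

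The beta tubulin gene tbb-1 (WBGene00006536), on chromosome III at 10740868 to 10742432 on the minus strand, supplies spindle tubulin in the embryo. Its strongest pooled summit was 212 bp upstream, at 109, rank 3285, with a −log10 q of 1.87. At this place replicate 1 had 29.99 and replicate 2 had 74.3, so tbb-1, like tba-2, had the larger share from replicate 2, with a ratio of 0.404. Replicate 1's strongest tbb-1 summit was instead 328 bp inside the gene, in coding exon 2 of 3, at 53.7, where replicate 2 had no overlapping peak. The upstream summit was also 166 bp from the 5' end of rib-2, a heparan sulfate synthesis gene that starts 377 bp away on the other strand, so the peak lies between a pair of diverging genes. Near the other end of tbb-1, a pooled summit 1208 bp inside it was 452 bp from the 5' end of K01G5.8. A further pooled summit was 58 bp inside tbb-1, in coding exon 1, at 82.1.

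The partner beta gene tbb-2 (WBGene00006537), on chromosome III at 4015910 to 4017627 on the minus strand, had no summit within the window in any list. Its nearest upstream summit was 591 bp away, with 115.5 in the pooled list (rank 2846), 75.9 in replicate 1 and, at 672 bp, 53.7 in replicate 2. The pooled value was 0.890 times the lowest in the IDR list, higher than that at tbb-1. The summit lay within the non-coding RNA gene C36E8.10, whose 5' end was 101 bp from it. The first coding base of tbb-2 is 5 bp inside the gene, while the tba-2 summit was 649 bp from the first coding base of tba-2. The contrast between tba-2 and tbb-2 thus depends on the 5' end used for tba-2.

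Sequences of 201 bp around an upstream summit each of the beta genes tbb-1, tbb-2 and tbb-4 are shown to set them beside the tba-7 peak. They are from the same genome, on the minus strand, 5' to 3', with the 11 bases centred on the summit in capitals. That of tbb-4 is replicate 2's summit and the others are pooled summits. Not shown are the pooled summits 99 bp and 331 bp upstream of mec-7 (GC content 47.8% and 40.8%) and 799 bp upstream of tbb-2 (45.8%).
tbb-1, chrIII:10742544-10742744: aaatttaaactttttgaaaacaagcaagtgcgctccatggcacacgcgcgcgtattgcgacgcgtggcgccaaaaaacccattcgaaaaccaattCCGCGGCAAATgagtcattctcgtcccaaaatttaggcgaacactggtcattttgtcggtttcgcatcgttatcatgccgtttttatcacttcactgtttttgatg
tbb-2, chrIII:4018118-4018318: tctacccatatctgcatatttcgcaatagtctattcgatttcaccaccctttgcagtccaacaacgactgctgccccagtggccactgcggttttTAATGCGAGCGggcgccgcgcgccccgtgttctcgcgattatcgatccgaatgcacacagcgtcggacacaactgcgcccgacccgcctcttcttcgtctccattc
tbb-4, chrX:9436910-9437110: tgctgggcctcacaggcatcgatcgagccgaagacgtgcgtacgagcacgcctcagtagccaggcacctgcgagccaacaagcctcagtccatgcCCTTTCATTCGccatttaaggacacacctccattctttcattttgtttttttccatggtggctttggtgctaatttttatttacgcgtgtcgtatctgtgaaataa
None of these 3 windows held the A box, B box or TATA box (TATAAA) letters, which describes only these windows. Other pooled summits of the same genes did hold some, with B box letters 58 bp inside tbb-1 and 853 bp inside tbb-2 and A box letters 573 bp inside tbb-4. The GC content of the 3 windows shown was 44.8%, 56.2% and 49.3%, against a mean of 48.9% at IDR summits and 36.4% at the starts of protein-coding genes. The TATA box letters were in 7.63% of windows at IDR summits and 26.5% of those at protein-coding 5' ends.

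The alpha gene tba-4 (WBGene00006530), on chromosome II at 10918706 to 10920211 on the plus strand, differed in where its single summit lay, 378 bp inside the gene in coding exon 1 of 3. It had 78.9 in the pooled list (rank 7674), 47.1 in replicate 1 and 24.4 in replicate 2 (rank 24644), with a pooled −log10 q of 0.922. This is a weak entry whose q-value was above 0.05 in all 3 lists that hold it. Of the 31-base words in tba-4, 20.4% occur elsewhere in the genome, mostly in Y19D2B.1 on the same chromosome, but none of those in this peak do.

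Among the neuron-specific genes, mec-7 alone had a pooled summit in the window. The touch neuron gene mec-7 (WBGene00003171), on chromosome X at 7774856 to 7776689 on the minus strand, had pooled summits 99 bp and 331 bp upstream, at 63.8 and 66.0, with −log10 q of 0.585 and 0.623. Replicate 1 gave at most 39.0 there and replicate 2 gave 33.4, so the pooled mec-7 value was below the median of 69.3 over the 5892 protein-coding genes with a pooled summit in the window. The cilium gene tbb-4 (WBGene00006538), on chromosome X at 9434452 to 9436893 on the minus strand, had a summit 117 bp upstream in replicate 2 alone, at 69.9 (rank 1764, −log10 q 2.23). This was above the values of 87.2% of the 6297 protein-coding genes with a replicate 2 summit in the window, near tbb-1 at 74.3. No peak of replicate 1's list or of the pooled list overlapped it. Of the 1764 replicate 2 peaks at least as strong, 315 (17.9%) overlapped no replicate 1 peak and 135 (7.65%) no pooled peak.

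The genes tba-5 (WBGene00006531) and tba-6 (WBGene00006532), both on chromosome I and both used in ciliated sensory neurons, had the least. For tba-5 no list had a summit in the window or in the 4892 bp of the gene. Such a gene is not rare: 38.6% of all protein-coding genes, and 21.0% of those within 1 kb of its length, had no summit in any list by this rule. The nearest summit to the tba-5 5' end was 16.4 kb away in the pooled list, 29.8 kb in replicate 1's and 14.96 kb in replicate 2's. Over the 4603 bp of tba-6, the only summit was a weak one of replicate 2, at 25.99 and rank 21993. It lay in intron 4 of 8, within the gene F32H2.7, which is nested there on the opposite strand. Another weak replicate 2 summit, at 27.5 and rank 19586, lay 606 bp upstream of tba-6, outside the window and within the adjacent gene F32H2.8.

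**Figure D3:**
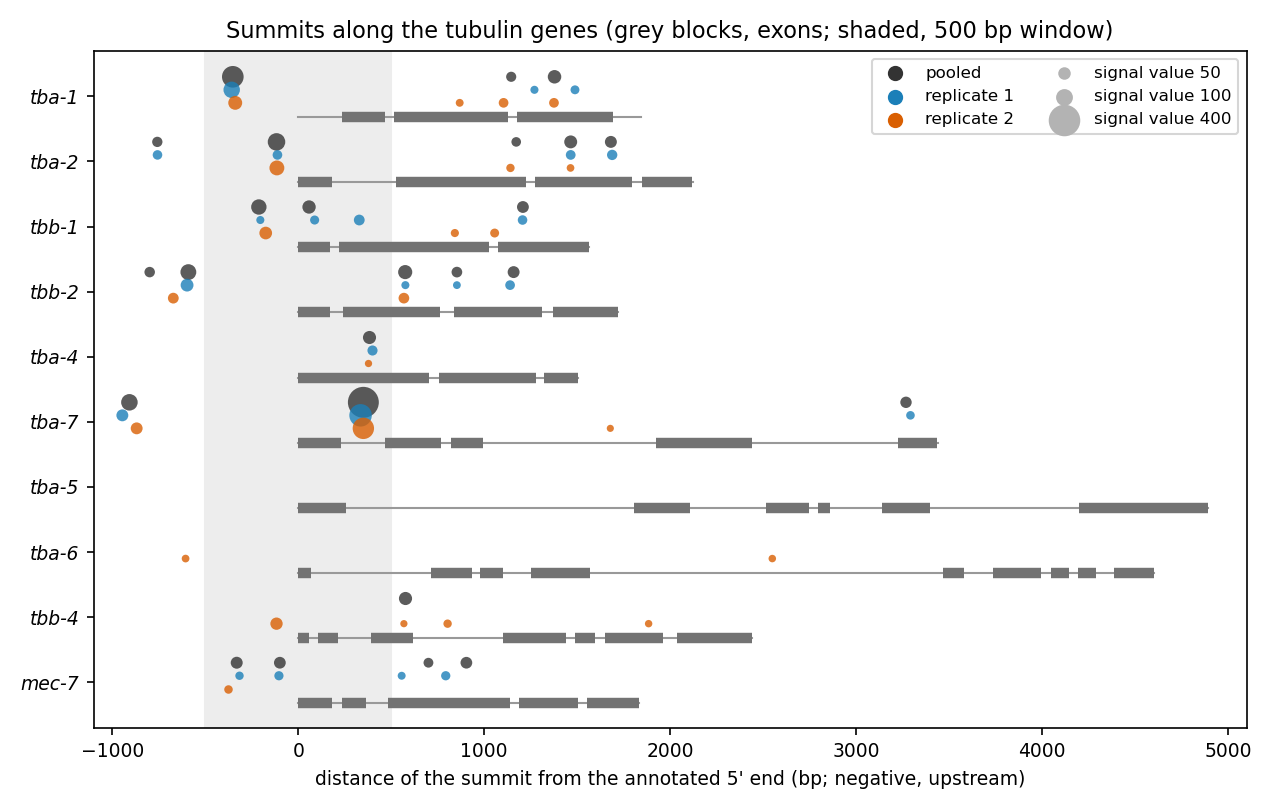
Summits along each tubulin gene, by distance from the annotated 5' end in bp, in the pooled list (black), replicate 1 (blue) and replicate 2 (orange); point area is proportional to signal value, grey blocks are exons of the transcript with the longest coding sequence, and the shaded band is the 500 bp window. The tba-7 summit 350 bp inside the gene is the largest, the tbb-2 summits fall outside the band, and tba-5 has none.

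The order of pooled values within the window was tba-7 (441), tba-1 (215), tba-2 (141), tbb-1 (109), tba-4 (78.9) and mec-7 (66.0). First place was the same in both replicates, while several neighbours changed places. In replicate 2, tba-2 (102) was above tba-1 (89.2), and in replicate 1 it fell below both tbb-1 (53.7) and tba-4 (47.1). In both replicates tba-7 was the highest of the 10 genes, and tba-1 was above tbb-1, tba-4 and mec-7.

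**Figure D4:**
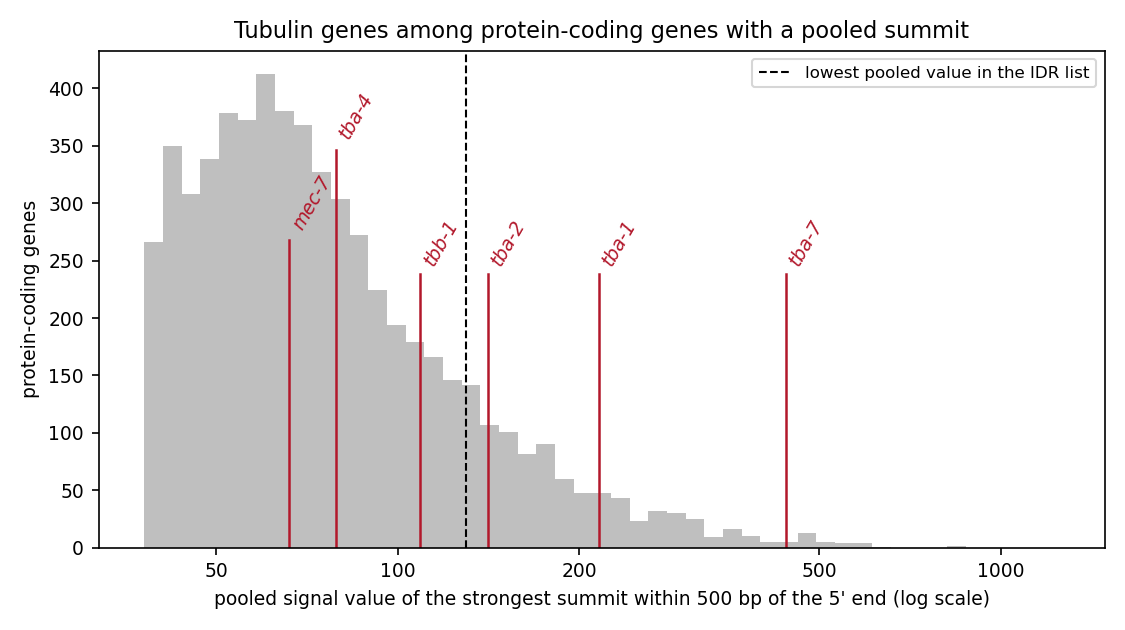
Pooled signal value (log axis) of the strongest summit in the 500 bp window of 5892 protein-coding genes that have one (grey), with the 6 tubulin genes that have one in red and the lowest value of the IDR list dashed. The tba-7 value of 441 was above those of 99.4% of these genes, tba-1 above 95.6%, tba-2 above 87.7%, tbb-1 above 78.7%, tba-4 above 60.6% and mec-7 above 46.0%.

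Inside the gene bodies, 8 of 10 tubulin genes held a pooled summit, against 40.6% of all protein-coding genes and 41.4% of the 9672 whose length lay between those of the shortest and longest members, 1506 and 4892 bp. Replicate 1's list gave 7 of 10 (background 40.2%) and replicate 2's gave 8 (background 43.1%). In the IDR list the count was 1, tba-7, against 3.09% of protein-coding genes, and that is the intron 1 peak described above. All 4 embryo-expressed genes held a body summit in each of the pooled and replicate lists. Of the neuron-specific genes, tbb-4 and mec-7 did in the pooled list, mec-7 alone in replicate 1 and tba-6 and tbb-4 in replicate 2.

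The embryo-expressed genes carried 10 pooled body summits in 7.25 kb, or 1.38 per kb, and the neuron-specific genes 3 in 13.8 kb, or 0.218 per kb. The pair in neither class, tba-4 and tba-7, had 0.607 per kb in each of the pooled and replicate lists. All protein-coding genes together had 0.333 per kb, those as long as the embryo-expressed members had 0.271 per kb and those as long as the neuron-specific members 0.285 per kb. The contrast was present in each replicate, at 1.38 against 0.145 per kb in replicate 1 and 1.103 against 0.290 per kb in replicate 2. It does not hold gene by gene, since mec-7 had 1.09 per kb in the pooled list and in replicate 1, close to tba-1, and tbb-4 had 1.23 per kb in replicate 2. Most of the empty length was that of tba-5 and tba-6, the longest members. Coding length was similar in all 10 genes, from 1323 bp in mec-7 to 1392 bp in tba-6. The longer neuron-specific genes therefore hold a smaller share of coding bases, and the densities were not adjusted for this. The difference between the classes was not tested.

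**Figure D5:**
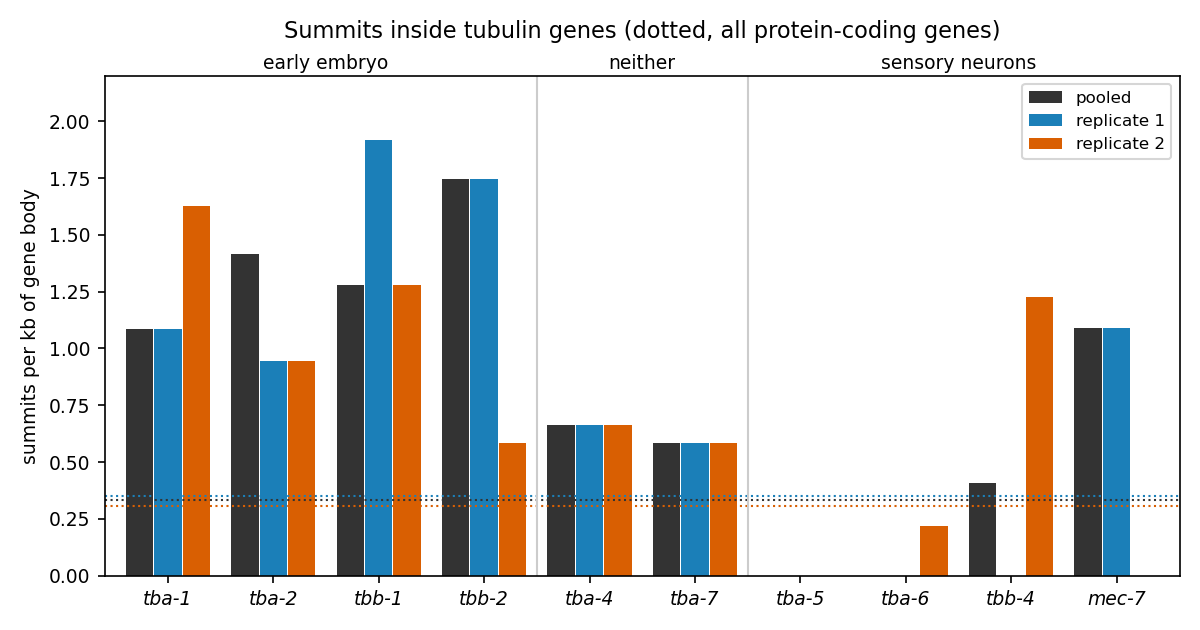
Summits per kb of gene body in each tubulin gene, in the pooled list (black), replicate 1 (blue) and replicate 2 (orange), with dotted lines at the value over all protein-coding genes in each list. The embryo-expressed genes, at 0.582 to 1.92 per kb, and also tba-4 and tba-7, at 0.664 and 0.582, are above the lines in every list, mec-7 is above them in the pooled list and replicate 1 (1.09) and tbb-4 in the pooled list (0.410) and replicate 2 (1.23), and tba-5 has no summit.

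Most of these body summits were in coding sequence, and most had q-values above 0.05. Of the 16 pooled ones, 14 lay in coding exons (87.5%), as did 14 of 15 in replicate 1 and 11 of 15 in replicate 2. Over all protein-coding genes the shares were 52.2%, 57.6% and 41.2%. Coding bases made up 51.9% of the tubulin gene bodies and 39.3% of all gene bodies, and this difference was not adjusted for. Pooled values ran from 42.6 to 441 with a median of 65.7, and 1 of 16, the tba-7 intron peak, had a q-value of 0.05 or less. In replicate 1, 3 of 15 did, at tba-7, at tbb-1 (53.7, −log10 q 1.69) and at tba-2 (49.3, −log10 q 1.42), and in replicate 2 it was 1 of 15, at tba-7. The highest pooled values after tba-7 were 92.1 at tbb-2 in coding exon 2, 83.9 at tba-1 in coding exon 4, 82.1 at tbb-1 in coding exon 1, and 79.7 at tbb-4 in coding exon 3. Most did not have a summit within 100 bp in both replicates' lists, although peaks of both replicates overlapped several of those. An example is the tba-1 summit 1378 bp inside the gene. Replicate 2's summit was at 1375 bp, and replicate 1 had overlapping peaks with summits at 1270 and 1488 bp. Of 25 pooled summits in the bodies or within 1000 bp of the 5' ends, 10 had a summit within 100 bp in both replicates' lists, and 6 of these were stronger in replicate 1.

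Tubulin coding sequences resemble each other, and the handling of reads that map to several places is not stated in the labels or files. The share of 31-base words found elsewhere in the genome was 0.717% in tba-1, 1.91% in tba-2, 3.38% in tbb-2 and 1.39% in mec-7, and at most 6.83% in any of the 25 pooled peaks. It was 0% in the peaks upstream of tba-1, tba-2, tbb-1 and tbb-2 and in the tba-7 intron peak. Exact repeats of this length were the only ones counted, and the part of multiply mapping reads in any peak was not tested.

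Other genes of the tubulin pathway showed where the tubulin genes stand. Of 57 genes that fold, nucleate, modify, cut or walk along microtubules, or are further tubulins, 4 had an IDR summit in the window (7.02%, beside 4.38% of protein-coding genes) and 33 a pooled one (57.9%, beside 29.5%). The 4 were ptrn-1, which protects microtubule minus ends (pooled 416, replicates 250 and 165), unc-116, the kinesin heavy chain (202, 109 and 91.8), the centrosome scaffold gene spd-5 (171, 91.0 and 85.8) and cls-3, of the CLASP family (156, 103 and 58.9). By list, this was 1 of 8 motor genes, 1 of 10 nucleation and centrosome genes, 2 of 13 microtubule-associated and severing genes, and none of 11 prefoldin and tubulin cofactor genes, 10 tubulin-modifying enzyme genes or 5 further tubulin genes. The folding genes had a pooled summit in 9 of 11. Whether other genes also start near the IDR summits of ptrn-1, unc-116, spd-5 and cls-3 was not examined. Inside the gene body, 38 of the 57 had a pooled summit (66.7%, beside 40.6%) and 4 an IDR summit (7.02%, beside 3.09%), with motor genes at 7 of 8 in the pooled list. Longer genes hold more summits, and these shares were not adjusted for length. The longest of the 57 has 15123 bp, against 4892 bp for the longest tubulin gene examined. Of the 5 further tubulins, named here after their values were seen, mec-12 had a pooled value of 88.9, tbg-1 had 45.7 and tba-9 had 44.7, while tba-8 and tbb-6 had no pooled summit in the window. The pooled tba-7 value was thus above those of all 57, with ptrn-1 nearest.

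The protein-coding genes closest to the members in both replicates' values, by distance of log2 values over the 2 replicates, were T14G11.1 for tba-1 (126 and 90.0, distance 0.020), lst-6 for tba-2 (44.2 and 101, distance 0.047) and Y22D7AL.6 for tba-7 (240 and 213, distance 0.046).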

How the data were processed

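Chromatin immunoprecipitation of HMG-4-eGFP was sequenced from 2 replicates of early embryos, after shearing to 200 to 800 bp per the labels. The authors deposited peak lists on ce11 made with a control alignment, as the text files deposited with them say. The signal value and the −log10 q-value of each peak are as deposited by the authors, and so is each summit offset. For the caller, its version and the threshold used for IDR, the sources used here give nothing. Because read depth is unknown, no counting error is given. The replicate and pooled lists end at 30000 peaks, so absence from a list is not absence of signal.

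Summits were set against Ensembl release 115 genes (WBcel235, the same build; no peak lay outside it) with Python 3.11.15, pandas 2.3.3 and numpy 2.4.6. A gene was counted when a summit lay within 500 bp of its 5' end, or inside it. Summits were placed in exons and introns by the transcript with the longest coding sequence, and shares in coding exons used every transcript. Coordinates are 1-based. Backgrounds are shares of all 19973 nuclear protein-coding genes. The counting was tested on simulated data. The members, classes and lists were chosen with earlier results of these data known. Sequence motifs were chosen after the tba-7 peak sequence was seen. Named genes are the members, genes starting within 500 bp of a member's summit, up to 4 genes per pathway list with the strongest IDR summit, and the nearest gene in replicate values for each member with an IDR summit. Outside this rule, adjacent or nested genes, a gene sharing sequence with tba-4 and the further tubulins were named after their values were seen. One listed name, hdac-6, had no match.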

Additional observations from a re-analysis of the deposited data

How the results depend on the processing

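The count of 3 tubulin genes with an IDR summit near the 5' end became 1 (tba-2, beside 2.18% of protein-coding genes) with a window of 200 bp, because the tba-1 and tba-7 summits are 352 and 350 bp away. That tba-2 remained depends on its outermost 5' end, since its second transcript starts 524 bp further in. Counting from the inner starts of tba-1 and tba-2 alone was not tested. With 1 replicate left out, taking as many of the strongest peaks of the other as the IDR list holds, the count ranged from 2 to 5. Without replicate 2 (3.79% of genes) tba-2 dropped out, and without replicate 1 (4.83%) tbb-1 and tbb-4 joined. It was 2 in the stronger 1068 IDR peaks, which lose tba-2 (2.13%), and 2 without peaks at any non-coding RNA gene, an alternative added after seeing the data, since tba-7 dropped out (3.44%). The pooled count of 6 became 3 with a window of 200 bp and 3 with a −log10 q of at least 2, while the share of all genes fell from 29.5% to 14.96% and 5.91%. The IDR body count of 1 became 0 without the first 500 bp of each gene (2.33% of genes). The pooled body count of 8 became 1 with a −log10 q of at least 2 (4.64%). With tba-7 among the neuron-specific genes, their IDR count rose from 0 to 1 and their pooled count from 1 to 2. Single replicates gave signal values of 89.2 to 124 at tba-1, 42.9 to 102 at tba-2, 24.4 to 47.1 at tba-4, 210 to 233 at tba-7, 53.7 to 74.3 at tbb-1 and 33.4 to 39.0 at mec-7. These are lower than the pooled values, which were near the sum of both replicates at sites found in both. At tbb-1 and mec-7 the values of the replicates come from different places. At the strongest pooled summit, replicates 1 and 2 had 29.99 and 74.3 at tbb-1, and 32.4 and 33.4 at mec-7. Of all 44 alternatives, 25 gave counts within 1.5 times the reported one, or values within the replicates' spread of it, and these include some of the changes above. The 44 include single-replicate signal values set against pooled ones, which differ in scale. The tally is therefore not a measure of how stable those values are. No paired analysis was possible because there is 1 group. The limit of 30000 peaks and the unknown depth mean that a missing weak summit is not evidence of none.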
